A study of Glycine max with 10 samples.

Results

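The SEPALLATA (SEP) transcripts of the soybean shoot apical meristem (SAM) were followed while plants were moved into short days (SDs). On the Affymetrix Soybean GeneChip, where each transcript is read by several short probes that together form a probe set, 3 of 37593 soybean probe sets carry a SEPALLATA annotation in the study's list of changed transcripts, and these 3 were taken. GmaAffx.45324.1.S1_at is annotated as AGL9, the older name of SEPALLATA3, and is called SEP3. GmaAffx.70788.1.S1_at and GmaAffx.76494.1.S1_at are both annotated as SEPALLATA1 and are called SEP1a and SEP1b here. The annotation assigns both to the same Arabidopsis gene, and it does not say whether they measure 1 soybean gene or separate copies. The study selected all 3 as changed on these same arrays, so that they changed over the time course is not independent evidence.

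SEPALLATA genes encode MADS-box transcription factors, named after the Arabidopsis mutant in which the floral organs are replaced by sepal-like organs. In Arabidopsis their proteins form complexes with the MADS-box proteins that specify sepals, petals, stamens and carpels, and these partners need them to give an organ its identity. In that species, SEP1 and SEP3 are switched on in the young floral meristem, after the genes that give the meristem its floral identity.

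Total RNA from pooled, microdissected SAMs of soybean (Glycine max, cv. Bragg) was hybridized to 10 arrays, a pair for each of 5 time points, and the arrays of a pair came from separate collections of tissue. The 0 SD plants were 10 days old and had grown only in the glasshouse. Plants of 1, 2, 4 and 6 SD had spent the same 10 days in the glasshouse, and then 1, 2, 4 or 6 SDs in a growth chamber at 24°C with 10 h of light. At 0, 1, 2 and 4 SD the dome-shaped SAM alone was dissected, whereas at 6 SD the inflorescence meristem was taken with the floral meristem beside it. The tissue collected therefore changed between 4 and 6 SD, and no array holds plants kept in long days in the chamber. The photoperiod, the change of growing place and the age of the plants cannot be told apart. In such bulk tissue, a change in the share of cells that make a transcript and a change in RNA per cell cannot be told apart either.

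The deposited values are log2 intensities made by robust multiarray averaging (RMA). Array medians over the soybean probe sets lay between 7.31 and 7.46, and the interquartile range was 3.94 to 4.02 in 9 arrays and 3.60 in 6 SD replicate 2. Of 4 knotted-type homeobox probe sets taken as meristem markers, 3 were above the median of every array and 1 above that of 8 arrays. Of the 2 annotated as SHOOT MERISTEMLESS, the brighter lay between 10.2 and 11.9. The other markers on the meristem list, NARK and CLV1A, were above the median of 0 arrays, at 3.49 to 3.74 and 5.31 to 6.36. Of the 5 probe sets of chlorophyll a/b-binding protein CAB3, a leaf marker, 3 were bright, between 12.8 and 14.2, although leaf primordia had been removed at dissection. The other two lay between 7.68 and 8.18 and between 4.80 and 5.39.

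SEP3 was the only SEPALLATA probe set with both 2 SD arrays above all arrays of 0 and 1 SD. It lay near the bottom of the array at 0 and 1 SD, was above those 4 arrays in both replicates of 2 SD, and was higher again at 4 SD and at 6 SD. The change at 2 SD against 0 SD, 0.54 on the log2 scale, did not pass the test in limma (adjusted p = 0.853). It ranked 865th among the rises of 20366 tested probe sets. The share of all probe sets with both 2 SD arrays above those of 0 and 1 SD is not given here. The log2 values of SEP3 were 3.97 and 3.99 at 0 SD, 3.98 in each array of 1 SD, 4.42 and 4.61 at 2 SD, 6.03 and 8.71 at 4 SD, and 10.94 and 10.27 at 6 SD, with replicate 1 given before replicate 2. The arrays of 0 and 1 SD lay within 0.02 of each other, and each later time point was clear of all arrays before it. On its array, SEP3 stood at the 6.95th to 7.28th percentile of the soybean probe sets at 0 and 1 SD, at the 15.6th and 18.4th at 2 SD, at the 33.5th and 68.5th at 4 SD, and at the 93.3rd and 89.3rd at 6 SD.

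**Figure D1:**
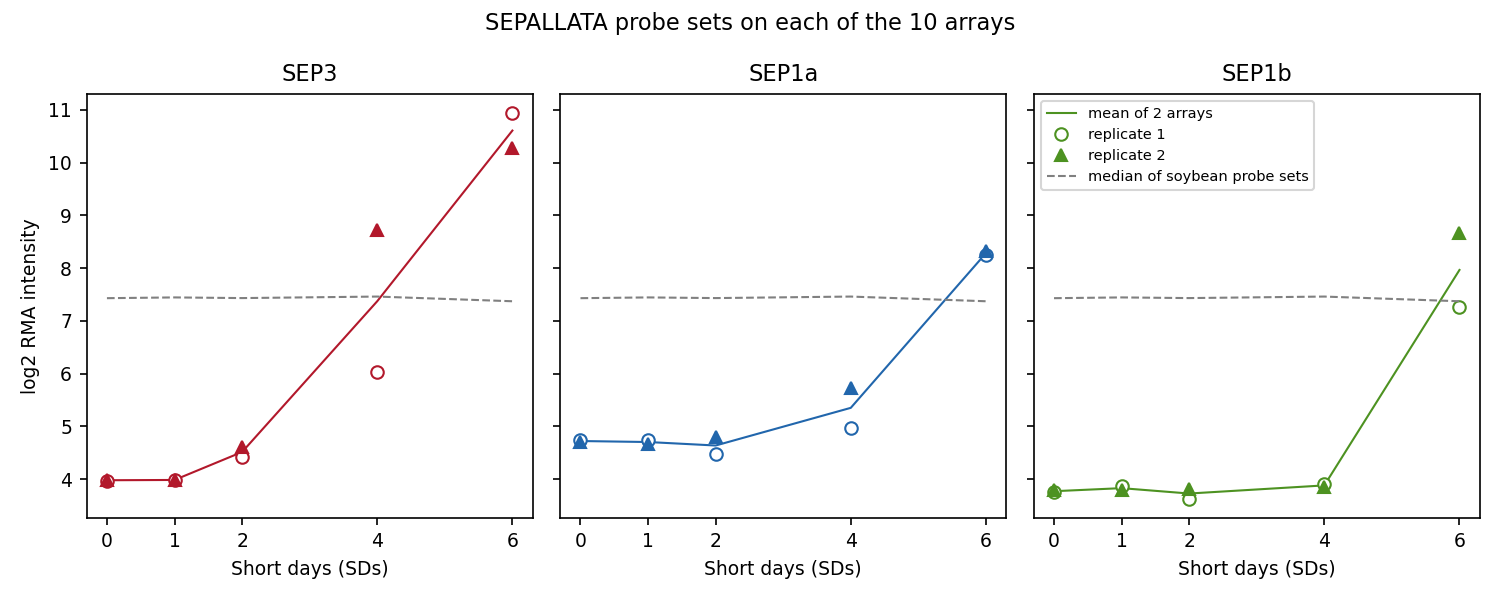
The log2 RMA intensity of SEP3, SEP1a and SEP1b (vertical axis) against the number of short days (horizontal axis), with open circles for replicate 1, filled triangles for replicate 2, a line through the mean of 2 arrays and a dashed line for the median of the soybean probe sets. SEP3 is above its 0 SD level in both 4 SD arrays, at 6.03 and 8.71, whereas SEP1b is at 3.90 and 3.86 there and leaves its low level only at 6 SD.

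The mean of SEP3 at 6 SD was 10.61 ± 0.48, against 3.98 ± 0.01 at 0 SD (SD of log2 values, n = 2 each). This is a log2 change of 6.63 (95% interval 5.04 to 8.22), or 99.0-fold, with an adjusted p of 0.00305 in limma, and it was the 2nd largest rise among 20366 tested probe sets. In this comparison 3.67% of the tested probe sets rose. The median change of all tested probe sets was -0.13, which is small beside the change of SEP3. SEP3 also rose at 6 SD against 1 SD, by 6.62 (adjusted p = 0.0047), and against 2 SD, by 6.09 (adjusted p = 0.00618), comparisons in which 1.69 and 1.91% of the tested probe sets rose. The call against 1 SD was lost without either 1 SD array (adjusted p = 0.0787 without replicate 1 and 0.0515 without replicate 2), and the call against 2 SD was lost without 2 SD replicate 2 (adjusted p = 0.0544).

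At 4 SD the mean of SEP3 was 7.37 ± 1.90, against 3.98 ± 0.01 at 0 SD (SD, n = 2 each). The log2 change of 3.39 (95% interval 1.80 to 4.98), or 10.5-fold, was the 6th largest rise of 20366, but its adjusted p was 0.252, and 0.0393% of the tested probe sets rose in this comparison. Without 4 SD replicate 1 the change was 4.74, resting on the single array of replicate 2. With each array left out in turn it ranged from 2.05 to 4.74. A fit without either 4 SD array holds no estimate of the spread at 4 SD. At 2 SD the change was 0.54 (95% interval -1.05 to 2.12, adjusted p = 0.853). The interval of SEP3 is wide at every time point because 1 estimate of the spread serves all of them, and 93.6% of the sum of squares behind it came from the pair of arrays at 4 SD.

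SEP1a, 1 of the probe sets for SEPALLATA1, stayed at its starting level through 2 SD and was lifted mainly at 6 SD. Its log2 values were 4.75 and 4.69 at 0 SD, 4.74 and 4.67 at 1 SD, 4.47 and 4.80 at 2 SD, 4.97 and 5.73 at 4 SD, and 8.24 and 8.33 at 6 SD. Both 4 SD arrays lay above all 6 arrays of 0, 1 and 2 SD, the lower of them by less than the gap between the 2 SD arrays. Both 6 SD arrays were far above all others.

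SEP1a averaged 8.28 ± 0.06 at 6 SD and 4.72 ± 0.04 at 0 SD (SD, n = 2 each). It rose by 3.56 on the log2 scale (95% interval 3.03 to 4.09), or 11.8-fold, with an adjusted p of 0.000613 in limma, and ranked 31st among the rises of 20366 probe sets. At 4 SD its change from 0 SD was 0.63 (95% interval 0.10 to 1.16, adjusted p = 0.664). SEP1a also rose between these time points, by 2.93 at 6 SD against 4 SD (95% interval 2.40 to 3.47, adjusted p = 0.00845), a comparison in which 0.412% of the tested probe sets rose. The corresponding change of SEP3 was 3.24 (95% interval 1.65 to 4.83), and its adjusted p of 0.102 missed the threshold. Without 4 SD replicate 2, that change of SEP3 was 4.58, resting on replicate 1 alone at 4 SD.

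SEP1b, the other SEPALLATA1 probe set, stayed near the bottom of the array through 4 SD and was high only at 6 SD. It measured 3.75 and 3.79 at 0 SD, 3.86 and 3.79 at 1 SD, 3.63 and 3.82 at 2 SD, 3.90 and 3.86 at 4 SD, and 7.27 and 8.66 at 6 SD, on the log2 scale. The 4 SD arrays lay above all arrays of 0 and 2 SD, the lower of them by less than the gap between the 2 SD arrays, and overlapped those of 1 SD. All 8 arrays of 0 to 4 SD lay between the 1.56th and 5.89th percentile of their array, among the dimmest probe sets. Both 6 SD arrays were above all others. Only 6 SD replicate 2 exceeded the median of its array, and SEP1b therefore failed the brightness filter, which asks for 2 arrays above the median. Its tests come from the fit of all 37593 soybean probe sets.

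SEP1b averaged 7.96 ± 0.98 at 6 SD and 3.77 ± 0.03 at 0 SD (SD, n = 2 each). In limma it rose by 4.20 on the log2 scale (95% interval 3.38 to 5.02), or 18.3-fold, with an adjusted p of 0.00137, and ranked 13th of 37593, where 2.88% of the probe sets rose. Its rise at 6 SD against 4 SD, 4.09 (95% interval 3.27 to 4.90, adjusted p = 0.00651), ranked 1st among all 37593 soybean probe sets, of which 0.476% rose. Without 4 SD replicate 1 the adjusted p of this rise was 0.0755, with the size at 4.11. At 4 SD against 0 SD the change was 0.11 (95% interval -0.71 to 0.93, adjusted p = 0.999). SEP3 and SEP1a, which passed the filter, did so only through arrays of 4 and 6 SD or of 6 SD, where they were high. All low values sit where background decides much of the intensity, so each fold change depends on how the dimmest signals were estimated.

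**Figure D2:**
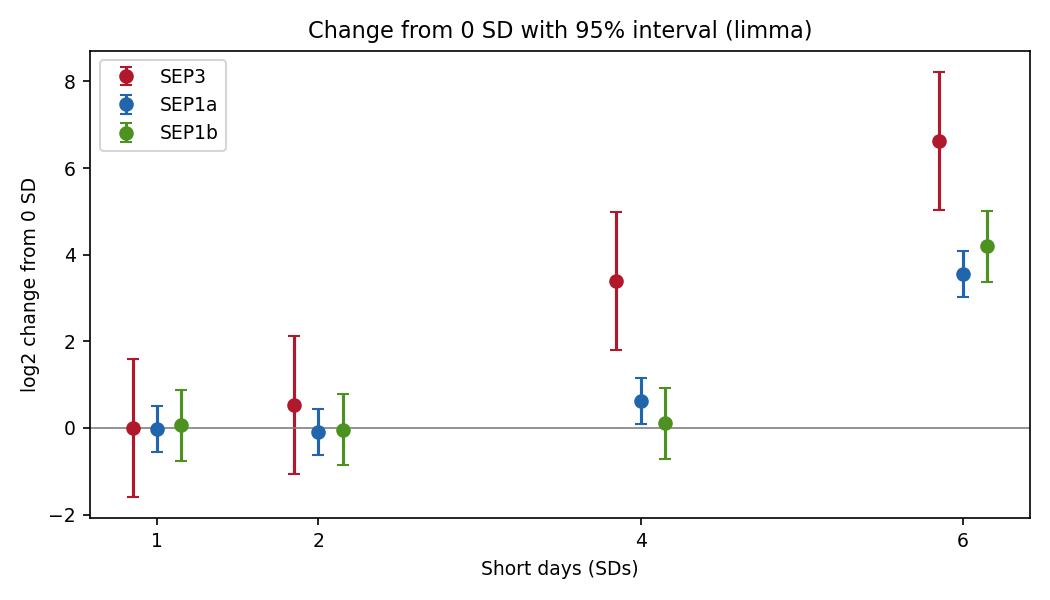
The log2 change from 0 SD (vertical axis) of SEP3, SEP1a and SEP1b at 1, 2, 4 and 6 SD (horizontal axis), with the 95% interval from limma as bars. At 4 SD the interval of SEP3 runs from 1.80 to 4.98 and that of SEP1b from -0.71 to 0.93, and at 6 SD all 3 intervals lie above 3.

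Over the whole time course, tested as a cubic curve in the number of short days, the adjusted p was 0.0024 for SEP3, 0.000276 for SEP1a and 0.000734 for SEP1b, and 4.3% of the tested probe sets (3.33% with no filter) passed. Ordered by level, the means of SEP3 ran from 0 through 1, 2 and 4 SD to 6 SD. No step between neighbours in that order passed the test (adjusted p from 0.102 to 1.00), although the 95% intervals of the last 2 steps, 1.27 to 4.45 at 4 SD against 2 SD and 1.65 to 4.83 at 6 SD against 4 SD, lay above 0. For SEP1a the order was 2, 1, 0, 4 and 6 SD and for SEP1b 2, 0, 1, 4 and 6 SD, and in each only the step from 4 to 6 SD passed the test.

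The order of SEP3 and SEP1 was examined by their changes, since the levels of different probe sets cannot be compared. Of the log2 rise between 0 and 6 SD, SEP3 had made 51.2% at 4 SD, SEP1a 17.7% and SEP1b 2.62%. The 4 SD replicates gave 31.0 and 71.4% for SEP3, 7.11 and 28.2% for SEP1a, and 3.18 and 2.06% for SEP1b. SEP3 had the largest share in each replicate, and the lower share of SEP3 exceeded the higher share of SEP1a. On the linear scale the shares were smaller, 9.71% for SEP3, 5.06% for SEP1a and 0.458% for SEP1b. At 2 SD, SEP3 had made 8.07% of its log2 rise, and both SEP1 probe sets stood slightly below their 0 SD mean.

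The difference between SEP3 and each SEP1 probe set was then taken within each array and tested for a change from 0 SD. Relative to its 0 SD mean, SEP3 minus SEP1a stood at 0.69 and 0.55 at 2 SD, 1.80 and 3.73 at 4 SD, and 3.45 and 2.69 at 6 SD, whereas the arrays of 0 and 1 SD lay between -0.04 and 0.06. SEP3 had thus moved further than SEP1a in all 6 arrays from 2 SD on. At 6 SD the change of SEP3 exceeded that of SEP1a by 3.07 (95% interval 1.84 to 4.30, adjusted p = 0.0169 in limma). At 4 SD it did so by 2.77 (95% interval 1.53 to 4.00), with an adjusted p of 0.223. Without 4 SD replicate 1 the value was 3.73, resting on replicate 2 alone. Between 4 and 6 SD the difference changed by 0.30 (95% interval -0.93 to 1.53, adjusted p = 0.79), so the intervals allow either SEP3 or SEP1a the larger step there. The 6 SD call was lost when the prior was made robust with a trend on intensity (adjusted p = 0.119) and without either 0 SD array (adjusted p = 0.0955 without replicate 1 and 0.0684 without replicate 2), with the size between 3.03 and 3.10 in each case.

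SEP3 minus SEP1b, relative to its 0 SD mean, stood at 0.58 and 0.58 at 2 SD, 1.92 and 4.65 at 4 SD, and 3.47 and 1.40 at 6 SD. Again all 6 arrays from 2 SD on lay above those of 0 and 1 SD. The change was 3.28 at 4 SD (95% interval 1.31 to 5.26, adjusted p = 0.407) and 2.43 at 6 SD (95% interval 0.46 to 4.41, adjusted p = 0.117), and neither passed. SEP1a minus SEP1b changed by 0.52 at 4 SD (95% interval -0.42 to 1.46, adjusted p = 0.874) and by -0.63 at 6 SD (95% interval -1.57 to 0.31, adjusted p = 0.341). Without 6 SD replicate 1 this last value was -1.29 (adjusted p = 0.0333), resting on replicate 2 alone. An exact two-sided permutation test of 2 arrays against 2 cannot go below p = 0.333, and SEP3 minus SEP1a gave that value at 4 SD and at 6 SD.

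**Figure D3:**
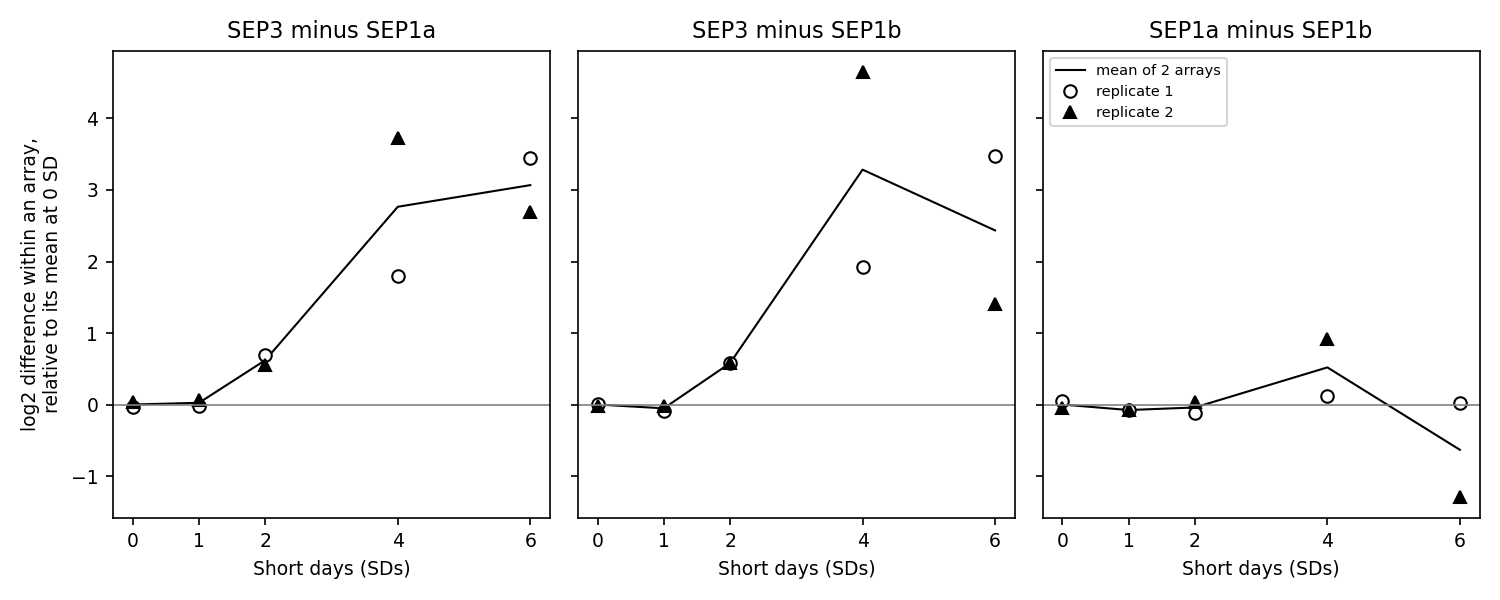
The log2 difference between 2 SEPALLATA probe sets within each array, relative to its mean at 0 SD (vertical axis), against the number of short days (horizontal axis), with open circles for replicate 1, filled triangles for replicate 2 and a line through the mean. SEP3 minus SEP1a stands at 1.80 and 3.73 at 4 SD, and SEP1a minus SEP1b lies between -0.11 and 0.05 in all arrays up to 2 SD.

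The gap between replicates differed among the SEPALLATA probe sets and was widest for SEP3 at 4 SD. At 0, 1 and 2 SD the replicates of SEP3 differed by 0.02, 0.003 and 0.19. At 4 SD they differed by 2.68 (6.43-fold), with replicate 2 higher, and at 6 SD by 0.67, with replicate 1 higher. Of 20366 tested probe sets, 1 had a larger gap at 4 SD, GmaAffx.89665.1.A1_s_at with 2.94, which has no gene name in the tables used and is named after its value was seen. SEP1a differed by 0.75 at 4 SD, again with replicate 2 higher, a gap above that of 98.4% of the tested probe sets, and by 0.33 at 2 SD and 0.08 at 6 SD, where it made most of its rise. SEP1b differed by 0.05 at 4 SD and by 1.39 at 6 SD (2.63-fold, replicate 2 higher), above 97.7% of the tested probe sets. The gaps of SEP3 and SEP1a at 4 SD and of SEP1b at 6 SD were equally unusual among soybean probe sets of a like level (99.98, 98.4 and 97.4%).

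**Figure D4:**
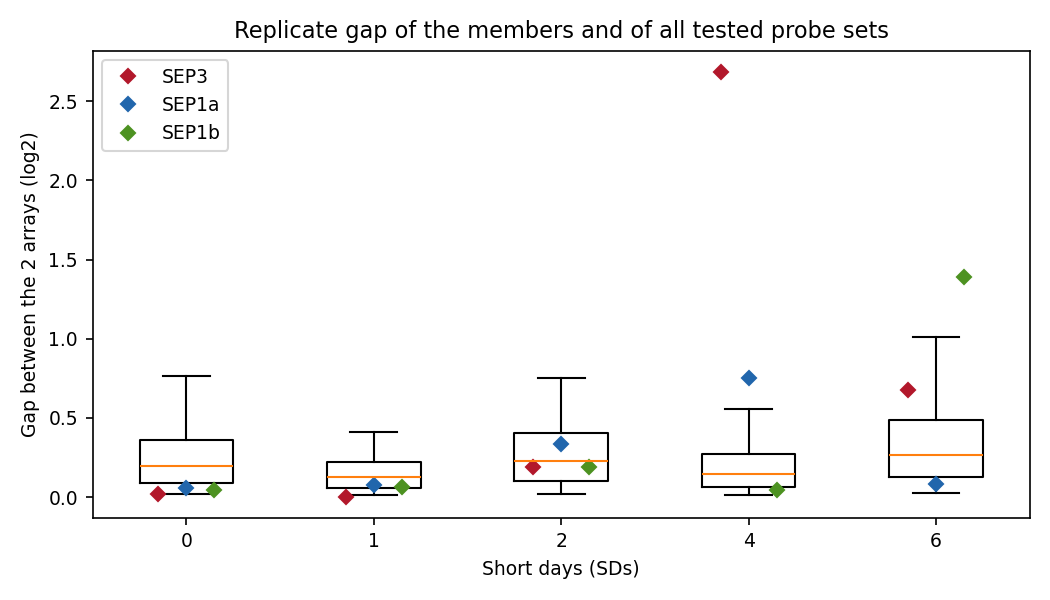
The gap between the 2 arrays of a time point in log2 units (vertical axis) at each number of short days (horizontal axis), with diamonds for SEP3, SEP1a and SEP1b. Boxes show the quartiles and median over 20366 tested probe sets, and whiskers reach the 5th and 95th percentile. SEP3 at 4 SD, with 2.68, lies far above the 95th percentile of 0.56.

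Of the 6 other MADS-box probe sets of the study's list, which it chose on these arrays, the 5 that rose by 6 SD were all higher in 4 SD replicate 2 than in replicate 1, by 0.34 to 2.15, as were 55.9% of the tested probe sets. SVP was lower in 4 SD replicate 2, with a difference of -0.13. The same 5 were also all higher in replicate 2 at 0 SD and at 2 SD, as were 55.6 and 56.0% of the tested probe sets. Of these 5, 3 were higher in replicate 2 at 1 SD and 2 at 6 SD, as were 49.7 and 32.0% of the tested probe sets. AP1, which gives the floral meristem its identity and specifies sepals and petals in Arabidopsis, measured 8.33 and 10.17 at 4 SD. MADS box M3 measured 7.29 and 9.44, and its gap of 2.15 was the 3rd largest of all tested probe sets. The summed meristem markers were higher in 4 SD replicate 2 as well, at 12.41 against 12.11 in replicate 1 on the log2 scale (6 probe sets). Their part in the gap of SEP3 was not tested.

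At 6 SD the floral organ marker was highest in the array in which SEP1b was highest. NMH7, a MADS-box gene taken as the marker of floral organs, was dim in all 10 arrays in each of its 3 probe sets. Summed over these on the linear scale, its intensity had a log2 of 6.43 in 6 SD replicate 2 and of 5.43 to 5.70 in the other 9 arrays. MADS28, whose RefSeq synonyms name it AGL9-like, measured 4.03 and 6.78 at 6 SD and 3.52 to 3.93 before (adjusted p = 0.202 at 6 SD with no filter). SEP1b and MADS28 were thus higher in 6 SD replicate 2, the array with the narrow interquartile range, and SEP3 was lower there. The summed leaf markers (7 probe sets) were 15.19 and 15.76 at 6 SD and lay between 15.15 and 15.74 in the arrays of 0 to 4 SD. The summed meristem markers stood at 12.95 and 12.79 at 6 SD and at 11.55 and 11.66 at 0 SD. At 6 SD against 0 SD, 3 of the 4 tested meristem markers and 0 of the 6 tested leaf markers rose, where 3.67% of all tested probe sets rose. All 4 tested meristem markers are in the study's list, chosen as changed on these same arrays, so their count is not independent evidence. The part of these markers, or of this array, in the rise of the SEPALLATA probe sets was not tested. Without 6 SD replicate 2 the change of each SEPALLATA probe set from 0 SD kept its call.

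Set beside the SEPALLATA transcripts, the 5 MADS-box probe sets of the study's list that rose at 6 SD had covered more of their rise by 4 SD in the mean. FRUITFUL, whose Arabidopsis counterpart acts in meristem identity and fruit growth, had made 81.1% of its log2 rise at 4 SD, and the probe set matched to AT1G26310, the Arabidopsis gene CAULIFLOWER, 85.2%. AP1 stood at 59.1%, AP1A (MADS box M2) at 59.3% and M3 at 60.6%, ranges that overlap that of SEP3 between replicates. At 2 SD, FRUITFUL with 27.0% of its rise and the AT1G26310 match with 21.7% were further along than SEP3 with 8.07%. AP1A with 7.60%, M3 with 0.757% and AP1 with -0.0589% were not. At 4 SD, SEP3 was lowest of the 6 in the mean, followed by SEP1a and SEP1b. No difference between SEP3 and these genes was tested at either time point.

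Of the 6 MADS-box probe sets, 4 rose at 4 SD (AP1, AP1A, FRUITFUL and the AT1G26310 match) and 5 at 6 SD, against 0.0393% of all tested probe sets at 4 SD and 3.67% at 6 SD. The study chose these 6 as changed on these same arrays, so the counts and the median change below are not independent evidence. At 6 SD, SVP, a repressor of flowering in Arabidopsis, fell by 1.09 (adjusted p = 0.0174), as did 2.79% of the tested probe sets. The 4 that rose at 4 SD became 2 without any one array of 0 or 1 SD, and SVP no longer passed when 6 SD replicate 2 or one of the 0 SD arrays was left out. The median change of the 6 was 3.36 at 4 SD and 4.56 at 6 SD, against -0.02 and -0.13 over all tested probe sets. At 6 SD, AP1 rose 168-fold, M3 94.2-fold, FRUITFUL 24.4-fold, AP1A 22.7-fold and the AT1G26310 match 11.4-fold. A further 3 MADS-box probe sets were found by gene symbol, of which 1 was bright enough to test. This was AGL3L, named after AGL3, the older name of Arabidopsis SEP4. It was bright at every time point, at 9.11 and 9.76 at 6 SD and 8.29 and 8.47 at 0 SD, and rose by 1.06 (adjusted p = 0.0292), unlike the low start of SEP3, SEP1a and SEP1b. It had made 48.3% of its log2 rise at 4 SD, slightly less than SEP3, but by another course. After 1 SD the mean of AGL3L was already 0.59 above its start, whereas SEP3 had changed by 0.005. The AGL3L mean was 0.67 above its start after 2 SD, and lower again, 0.51 above it, after 4 SD. None of these AGL3L changes passed the test (adjusted p from 0.426 to 0.754). The call of AGL3L was lost without any one array of 0, 1 or 4 SD and without 6 SD replicate 2. AGL1L stayed between 3.64 and 4.09 throughout. Outside the MADS-box family, FT1A and BFT, of the FLOWERING LOCUS T family, were dim and lay within 0.38 of their lowest value in all arrays.

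**Figure D5:**
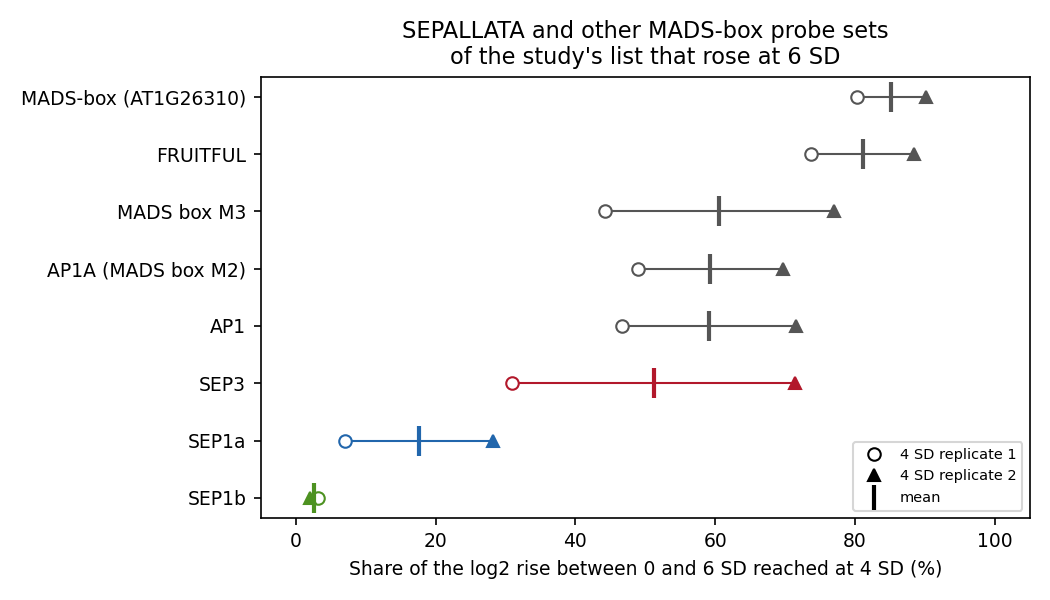
The share of the log2 rise between 0 and 6 SD that had been made at 4 SD in percent (horizontal axis) for the 3 SEPALLATA probe sets and the 5 other MADS-box probe sets of the study's list that rose at 6 SD (vertical axis), with a bar for the mean, an open circle for replicate 1 and a filled triangle for replicate 2. SEP3 is at 51.2%, SEP1a at 17.7% and SEP1b at 2.62%, below the other 5.

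The probe sets whose values ran most like each SEPALLATA probe set were found by Pearson's r over the 10 arrays, among tested probe sets whose time point means spanned at least 1 log2 unit. These are descriptions over 10 arrays in pairs that share a time point, and in each the 6 SD arrays weigh heavily. Nearest to SEP3 were GmaAffx.71645.1.S1_at, which has no match in the study's annotation (r = 0.995), BZIP1, annotated as an abscisic acid-responsive element-binding protein (0.994), M3 (0.991), an AAA-type ATPase, GmaAffx.43277.1.A1_at (0.990), and AP1A (0.989). Nearest to SEP1a were an expressed protein of no given function, GmaAffx.5982.1.A1_at (0.996), a sarcosine oxidase family protein, GmaAffx.27758.1.S1_at (0.993), Gma.8318.1.A1_at, which has no match (0.992), Gma.16974.1.S1_at, which is outside the study's list (0.991), and a phosphate-responsive protein, GmaAffx.61901.1.S1_at (0.990). The 5 nearest to SEP3 thus held 2 MADS-box probe sets, and the 5 nearest to SEP1a held 0.

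SEP1b was nearest to an isoflavone reductase, Gma.5863.1.S1_at (0.995), a trehalose-6-phosphate phosphatase, GmaAffx.5765.1.S1_at (0.980), GmaAffx.23289.1.S1_at, which has no match (0.980), a selenium-binding protein, Gma.6299.3.S1_at (0.980), and the same sarcosine oxidase family protein as SEP1a (0.979). Without the 6 SD arrays, 3 of the 5 nearest to SEP3 remained among its nearest 5, 2 of those of SEP1a and 0 of those of SEP1b. SEP1a and SEP1b correlated at 0.964, SEP3 and SEP1a at 0.938 and SEP3 and SEP1b at 0.833. SEP1a ranked 19th among the probe sets most like SEP1b, and SEP3 ranked 291st.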

How the data were processed

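Total RNA (3 µg per array) from SAMs was hybridized to 10 Affymetrix Soybean GeneChips. The deposited values are on the log2 scale, made by the authors with RMA, as their methods and the submitters' processing notes state. Its version and the probe set definition are not given in the sources used here. Of 37746 entries, 153 control and rRNA probe sets were left out. Testing was limited to the 20366 probe sets brighter than the array median on at least 2 arrays.

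The means of 5 time points were fitted with limma 3.58.1 in R 4.3.3 (5 residual degrees of freedom), with Benjamini-Hochberg adjustment within each comparison and a threshold of 0.05. SEP1b failed the filter, contrary to the planned design, and was taken from the fit of all 37593. Within-array differences were added to the fit as rows divided by the square root of the number of probe sets in them. The 4 comparisons with 0 SD share its arrays. Profiles were tested with 1 moderated F test of a cubic polynomial, which differs from the methods' maSigPro regression, run in steps with backward selection and quadratic and cubic models after a filter on present calls. The steps were tested on simulated data.

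The members and gene lists were chosen with earlier results of these data known. Named are the 3 members, 6 MADS-box probe sets of the study's list, other MADS-box or floral identity probe sets called at 4 or 6 SD, and the 5 most like each member. Others are named as markers or to account for a list. Symbols came from the platform annotation (8677 probe sets with 1, 370 with several, 28546 with none), of which 8652 matched the RefSeq table of assembly Glycine_max_v4.0. Replicate 1 is the array whose label names no replicate and replicate 2 the one labelled B. The number of arrays limits the precision. Alternatives were leaving out each array, a replicate block, no filter, a robust prior with a trend on intensity, further quantile normalization, medians set equal, 1 SD as the reference, and other curves.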

Additional observations from a re-analysis of the deposited data

How the results depend on the processing

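The rises of SEP3, SEP1a and SEP1b at 6 SD against 0 SD passed the test under every alternative run, and no called value changed direction. Of 713 alternative values of SEPALLATA changes that had not passed, 21 had the other sign. With each array left out in turn, they ranged from 6.29 to 6.97 for SEP3, 3.52 to 3.60 for SEP1a and 3.50 to 4.89 for SEP1b. The remaining array of the time point is then assumed to vary like the others. At 4 SD against 0 SD the change of SEP3 ranged from 2.05 to 4.74, and it passed only without 4 SD replicate 1. At 6 SD against 4 SD the change of SEP3 ranged from 1.89 to 4.58 and that of SEP1b from 3.39 to 4.78. The change of SEP3 minus SEP1a ranged from 1.80 to 3.73 at 4 SD and from 2.69 to 3.45 at 6 SD, and the value at 6 SD, 3.07, no longer passed when the prior was robust with a trend on intensity (adjusted p = 0.119). The cause was not tested.

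Same-numbered arrays deviated together at 0, 2, 4 and 6 SD (correlations of 0.19 to 0.62 across probe sets) but not with 1 SD (-0.37 to -0.07), so the numbers were not taken as pairs. With the replicate block SEP3 at 6 SD against 0 SD kept 6.63 (adjusted p = 0.00269), and no call of a member changed. Counts depended more on the settings. The probe sets that rose at 6 SD against 4 SD numbered 84, with 179 under no filter, 155 with a common median and 211 with the replicate block, and 2 to 716 with an array left out. Those that rose at 6 SD against 0 SD numbered 747, and 169 to 1125 with an array left out, and those at 4 SD against 0 SD 8, and 3 to 24. With time point as a factor, 366 passed the profile test, against 875 with the cubic curve. Of the 6 MADS-box probe sets, the 4 that rose at 4 SD became 2 without either array of 0 or 1 SD, and the fall of SVP at 6 SD was lost without either 0 SD array or 6 SD replicate 2. With 2 arrays per time point and dim values up to 2 SD, small early changes were not detectable.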
